A study of Mus musculus with 11 samples.

Results

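The clustered histone genes are the multi-copy genes for the linker histone H1 and the core histones H2A, H2B, H3 and H4. They were taken here as every gene with a symbol beginning Hist1h, Hist2h, Hist3h or Hist4h in the array's platform annotation (the older symbols) and with a row that carries a single gene symbol. This gave 29 rows and 28 genes among 30141 genes with such a row, 22 in the Hist1 cluster, 5 in Hist2 and 1 in Hist3. A gene with 2 rows (Hist1h4b) was described by the row with the higher mean over the 11 arrays. Of the 28 genes, 20 reached the signal minimum for testing, a mean log2 signal of 5.27 in at least 1 genotype, out of 18337 genes tested. The 28 comprised 5 H1 genes (3 tested), 9 H2A genes (7 tested), 9 H2B genes (7 tested), 3 H3 genes (2 tested) and 2 H4 genes (1 tested). RefSeq lists 2 of them, Hist1h2aj and Hist3h2bb-ps, as pseudogenes.

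Hepatocyte RNA from male mice aged 12 weeks was measured on 11 whole-transcript arrays, to learn how the chemokine receptor Cxcr6 bears on the liver disease of mice that lack Nemo in the liver. The genotypes were wildtype (n = 2), a liver-specific knockout of Nemo (Nemo KO, n = 3), a knockout of CXCR6 (Cxcr6 KO, n = 3) and the liver-specific Nemo knockout combined with the CXCR6 knockout (double KO, n = 3). Nemo, encoded by Ikbkg, regulates the kinase complex upstream of NF-kB, and the label NemoLPC-KO refers to liver parenchymal cells. Per the source names, wildtype and Nemo KO mice are the Cre-negative and Cre-positive animals of a first line. The Cxcr6 KO and double KO mice are those of a second line, so the loss of Cxcr6 cannot be told apart from the line. The labels do not name the promoter that drives Cre, and they call the replicates biological without saying that each is a separate mouse, so p-values measure the spread between these samples.

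Replication-dependent histone genes are transcribed together in S phase, when newly made DNA has to be packed into nucleosomes. Their messages lack introns and end in a stem-loop bound by the protein SLBP (gene Slbp) in place of a poly(A) tail, and they are degraded when replication stops, while Npat drives their transcription in nuclear bodies at the clusters. Adult hepatocytes are largely quiescent and divide again after injury, and the linker histone H1 binds the DNA between nucleosomes and helps to fold chromatin. Within the H2A, H2B, H3 and H4 classes many of the genes are close to identical in coding sequence, so a probe often fits several of them.

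The promoter sequences show what the genes share at the DNA level, apart from the array values. RefSeq (GRCm38.p6) gave a promoter for 24 of the 28 genes, and none was found in that table for Hist1h2aj, Hist2h2be, Hist3h2bb-ps and Hist1h3f. The 250 bases before the start site were searched on both strands for the CCAAT box (letters CCAAT), the TATA box (letters TATAAA), the octamer (letters ATTTGCAT) and the H1 box (letters AAACACA), and no match overlapped a match of another motif. Shown are the H1 genes with the widest spread between arrays (Hist1h1c) and with the change that passed the test (Hist1h1d), the H2A gene Hist1h2af, and the H2B gene Hist1h2ba, which lies head to head with Hist1h2aa. Capitals mark the motif matches, which read as the reverse complement where the match is on the opposite strand. Each run is written from its gene's own strand, and its last base is next to the start site.
Hist1h1c, chr13:23738557-23738806, plus strand: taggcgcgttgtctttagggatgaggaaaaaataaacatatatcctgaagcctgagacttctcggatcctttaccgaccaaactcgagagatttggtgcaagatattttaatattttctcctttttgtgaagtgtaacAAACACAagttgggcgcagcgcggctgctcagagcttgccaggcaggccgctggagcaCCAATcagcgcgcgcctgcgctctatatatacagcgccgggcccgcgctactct
Hist1h1d, chr13:23554782-23555031, plus strand: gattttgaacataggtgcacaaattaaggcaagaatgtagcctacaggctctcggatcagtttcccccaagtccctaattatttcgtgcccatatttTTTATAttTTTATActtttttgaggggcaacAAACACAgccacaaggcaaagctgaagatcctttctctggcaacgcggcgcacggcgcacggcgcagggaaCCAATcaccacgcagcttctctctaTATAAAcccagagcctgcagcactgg
Hist1h2af, chr13:23533625-23533874, plus strand: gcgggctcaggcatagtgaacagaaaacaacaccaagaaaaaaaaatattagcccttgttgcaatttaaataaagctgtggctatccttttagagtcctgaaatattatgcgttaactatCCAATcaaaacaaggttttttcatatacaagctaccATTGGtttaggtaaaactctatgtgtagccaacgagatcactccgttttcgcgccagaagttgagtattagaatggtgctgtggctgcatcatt
Hist1h2ba, chr13:23934157-23934406, minus strand: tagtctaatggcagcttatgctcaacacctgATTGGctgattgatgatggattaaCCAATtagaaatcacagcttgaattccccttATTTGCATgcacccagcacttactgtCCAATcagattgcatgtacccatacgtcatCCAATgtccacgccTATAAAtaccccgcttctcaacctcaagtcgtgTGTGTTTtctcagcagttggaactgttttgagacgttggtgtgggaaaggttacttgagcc

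A CCAAT box was present in 23 of the 24 histone promoters (95.8%), against 34.5% of 27025 mouse promoters of the same length. The octamer was present in 7 of 24 (29.2%) against 1.61% of all, and in 5 of 7 H2B promoters (71.4%). The H1 box was present in 4 of 5 H1 promoters (80.0%) and in 7 of all 24, against 6.22% of all promoters, and TATAAA in 9 of 24 (37.5%) against 12.97%. Counted back from the start site, the H1 box began at position -112 in Hist1h1c and -122 in Hist1h1d, and the CCAAT box at -54 and -51. Divergent pairs share this stretch: the windows of Hist1h2aa and Hist1h2ba overlapped by 220 bases, and those of Hist1h2ah and Hist1h2bk by 177. Matches in an overlap are counted for both genes. The octamer of each pair, and the H1 box of Hist1h2aa and Hist1h2ba, is thus the same site counted in both promoters. These matches describe letters in a window and were not tested against the array values.

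Several measurements set limits on all results below. The 2 wildtype arrays were less alike than the arrays of any other genotype (correlation over all rows 0.9843, against 0.990 to 0.995 for pairs within the others). Wildtype replicate 2 was closer to the Nemo KO arrays (0.9845 to 0.9897) than to wildtype replicate 1. Wildtype replicate 1 was closer to the Cxcr6 KO arrays (0.9879 to 0.9887) than to wildtype replicate 2. The reason was not tested, and it bears on every comparison with wildtype. The proliferation marker Mki67 had a log2 signal of 11.18 in wildtype replicate 2 and 5.35 in replicate 1. Mki67 was 8.64 to 9.44 in Nemo KO, 5.46 to 5.89 in Cxcr6 KO and 8.53 to 12.38 in double KO, with replicate 3 the highest of all 11 arrays. Ikbkg lay between 8.76 and 9.49 and Cxcr6 between 4.94 and 5.56 on all arrays, and since it is not known whether their probes lie in the deleted parts, these values do not check the labels. The 12 hepatocyte markers had array means of 18.01 to 18.19. In bulk RNA, fewer cells of a type and less RNA per cell cannot be told apart. Signals of different rows come from different probes, so levels are compared within a row only.

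**Figure D1:**
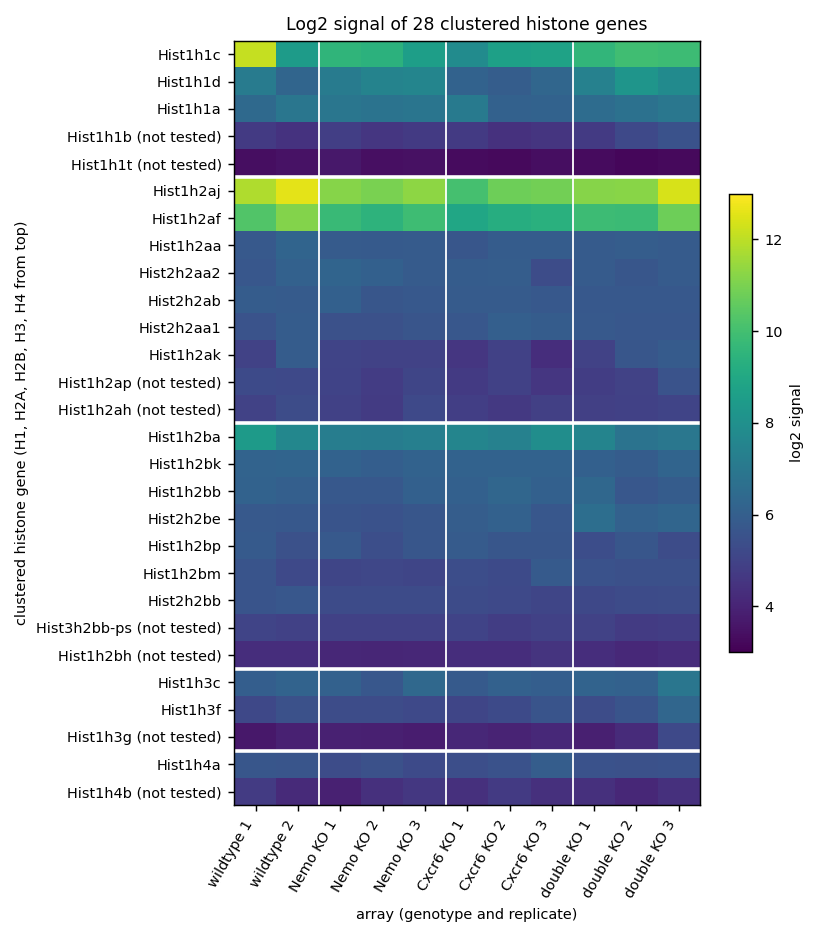
Log2 signal of each of the 28 clustered histone genes (rows, by class) on each of the 11 arrays (columns, grouped by genotype), with 8 genes below the signal minimum marked as not tested. The rows of Hist1h1c, Hist1h1d, Hist1h2aj and Hist1h2af have the widest ranges across the 11 arrays.

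The clustered histone genes differed widely in how far their signal varied over the arrays. The signal minimum was reached in all 4 genotypes by 17 genes, in some genotypes by 3 (Hist1h2ak, Hist1h2bm and Hist2h2bb) and in none by 8. The 8 genes not tested were Hist1h1b, the testis H1 gene Hist1h1t, Hist1h2ap, Hist1h2ah, Hist3h2bb-ps, Hist1h2bh, Hist1h3g and Hist1h4b. The difference between a gene's highest and lowest array ran from 0.30 to 4.30 log2 units and was over 1 for 12 of the 28 genes. Among the 20 genes tested the median of this range was 0.97 and 10 (50%) had a range over 1, against a median of 0.81 and a share of 36.5% over all genes tested. The difference between these shares was not tested. The widest ranges belonged to Hist1h1c (4.30), Hist1h2aj (2.56), Hist1h1d (2.27) and Hist1h2af (2.20).

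After adjustment over all 18337 genes tested, 1 histone gene in 1 comparison passed 5%: Hist1h1d rose in double KO over Cxcr6 KO. That is 1 of 20 (5%), against 7.41% of all genes in that comparison. In Nemo KO against wildtype 0 of 20 passed against 0.158% of all genes, in double KO against Nemo KO 0 of 20 against 0.594%, in Cxcr6 KO against wildtype 0 of 20 against 0.256%, and in the interaction (the Nemo effect with Cxcr6 minus the Nemo effect without it) 0 of 20 against 0.0%. At an unadjusted limma p under 0.05 the counts were 5, 1, 4 and 6 of 20 in those 4, and 5 of 20 for double KO against Cxcr6 KO. The same limit was passed by 24.6%, 16.8%, 11.1% and 11.8% of all genes, and by 29.1% for double KO against Cxcr6 KO. The share of histone genes was thus below that of all genes in double KO against Nemo KO, above it in Cxcr6 KO against wildtype and in the interaction, and these differences were not tested. The 6 genes of the interaction all had a negative estimate, and they include Hist1h2aj and Hist1h2af, whose rows may not be separate measurements. They also include Hist1h2ak and Hist2h2bb, which are among the 4 genes of Cxcr6 KO against wildtype as well. Both were below the signal minimum in Cxcr6 KO and above it in wildtype, which favours a difference.

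The median log2 fold change over the 20 genes was -0.18 in Nemo KO against wildtype (all genes -0.04), with 16 of 20 negative. It was 0.18 in double KO against Nemo KO (all genes 0.04, 13 of 20 positive), 0.07 in double KO against Cxcr6 KO (all genes -0.06, 12 positive) and -0.13 in Cxcr6 KO against wildtype (all genes 0.01, 15 negative). Of all genes tested, 44.6%, 56.9%, 39.3% and 51.8% were positive in these 4 comparisons, in that order. These comparisons share arrays and the genes share sequence, so the medians are descriptions. Genes whose arrays did not overlap between genotypes numbered 1 higher and 8 lower in Nemo KO than in wildtype (11.3% and 24.7% of all genes). They numbered 5 higher and 1 lower in double KO than in Nemo KO (12.9% and 9.94%), 5 higher and 0 lower in double KO than in Cxcr6 KO (13.3% and 24.4%), and 0 higher and 5 lower in Cxcr6 KO than in wildtype (12.7% and 11.2%). Except in double KO against Nemo KO, they include Hist1h2aj and Hist1h2af, whose rows may not be separate measurements. Some were below the signal minimum in 1 compared genotype, which favours a difference. These were Hist1h2bm in both comparisons with Nemo KO, Hist1h2ak in both with Cxcr6 KO, and Hist2h2bb in Cxcr6 KO against wildtype.

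**Figure D2:**
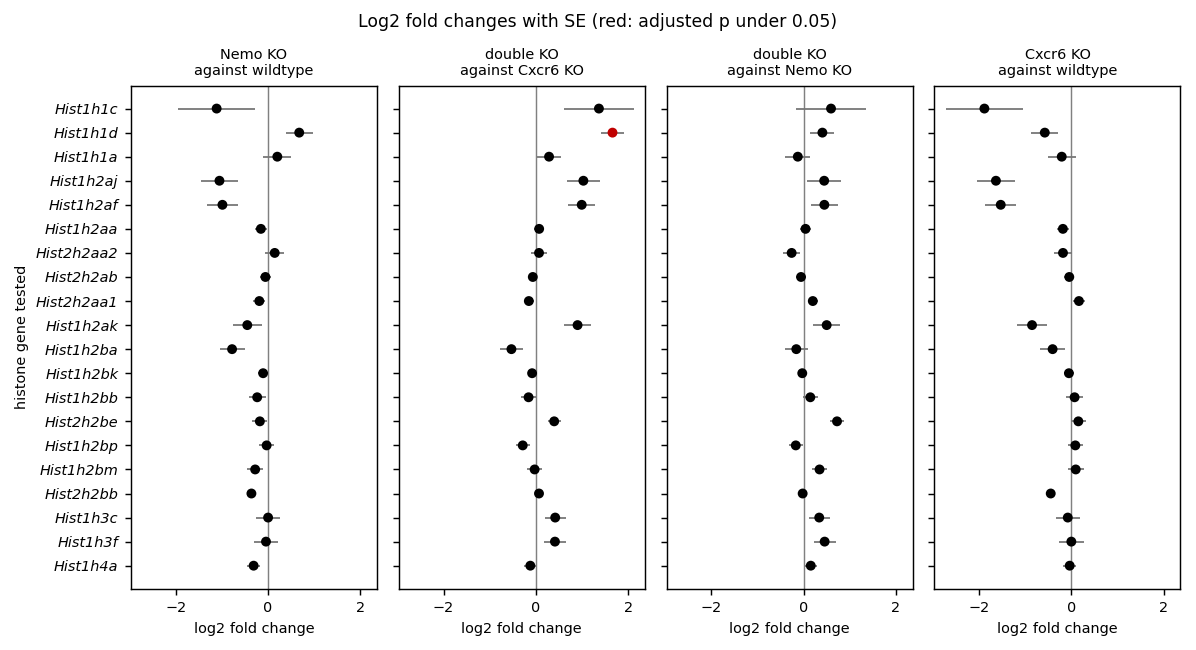
Log2 fold changes with standard errors for the 20 histone genes tested (by class, H1 at the top), in 4 comparisons of genotypes. Hist1h1d in double KO against Cxcr6 KO, at 1.66, is the only point past 5% after adjustment, and the wide bars of Hist1h1c go with the distance between the wildtype arrays.

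Among the linker histones, Hist1h1d, which encodes a somatic H1 subtype, gave the result that passed. Its log2 signal was 7.15 and 6.27 in wildtype, 7.16, 7.47 and 7.53 in Nemo KO, 6.15, 5.94 and 6.31 in Cxcr6 KO, and 7.39, 8.21 and 7.78 in double KO. The 6 arrays with Nemo deleted were all above the 5 others, by only 0.01 at the nearest pair (Nemo KO replicate 1 and wildtype replicate 1), a pattern that 2.03% of all genes tested also had. Double KO (7.79 ± 0.41, SD, n = 3) exceeded Cxcr6 KO (6.13 ± 0.18, n = 3) by 1.66 ± 0.26 (SE), a 3.16-fold difference with an adjusted p of 0.0138 in limma. In the line with intact Cxcr6 the difference between Nemo KO and wildtype was 0.68 (95% interval 0.02 to 1.33, adjusted p = 0.189), and the interaction was -0.98 (interval -1.86 to -0.11, adjusted p = 0.374), so the 2 Nemo effects were not shown to differ. Without wildtype replicate 2 the difference from wildtype was 0.24, and without replicate 1 it was 1.12. The call for double KO was lost without Cxcr6 KO replicate 2 (adjusted p = 0.0549), Cxcr6 KO replicate 3 (0.0506) or double KO replicate 3 (0.0508), with the estimate between 1.45 and 1.86 whichever array was left out.

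Markers of several other liver cell types were also higher in double KO than in Cxcr6 KO. In double KO against Cxcr6 KO, 12 of 12 endothelial markers tested passed with a higher signal (median difference 1.84). So did 5 of 13 Kupffer cell and macrophage markers, 8 of 10 stellate and fibroblast markers and 4 of 7 cholangiocyte markers, against 7.41% of all genes passing in either direction. Positive estimates, passing or not, were found for 13 macrophage, 10 stellate and 6 cholangiocyte markers, and for 39.3% of all genes. The endothelial markers had a mean log2 signal of 7.05 to 7.12 in wildtype, 7.37 to 7.85 in Nemo KO, 6.45 to 7.12 in Cxcr6 KO and 8.19 to 9.07 in double KO, an order of genotypes close to that of Hist1h1d. Macrophage markers averaged 6.90 to 7.24 in Cxcr6 KO and 8.09 to 9.09 in double KO, and stellate markers 5.91 to 6.09 and 7.04 to 7.98. None of the 4 T and NK cell, 3 B cell, 3 neutrophil or 12 hepatocyte markers tested passed, and 1 of 2 erythroid markers passed with a lower signal. Between the wildtype arrays the directions differed. Hist1h1d was 7.15 in replicate 1 and 6.27 in replicate 2, while macrophage markers averaged 6.54 and 7.58 and stellate markers 6.07 and 6.51. All 27 genes of G2 and mitosis, described below, were also positive in double KO against Cxcr6 KO (median 1.64). The part of these cells in the Hist1h1d result was not tested.

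Hist1h1c encodes another somatic linker histone and had the widest range of the 28 genes. Its log2 signal was 12.11 and 8.50 in wildtype, 9.54, 9.43 and 8.60 in Nemo KO, 7.81, 8.67 and 8.77 in Cxcr6 KO, and 9.58, 9.92 and 9.85 in double KO. Wildtype replicate 1 stood above all other arrays, and wildtype replicate 2 was below every array of double KO. With both wildtype arrays, no comparison passed: Cxcr6 KO differed from wildtype by -1.89 ± 0.84 (interval -3.78 to 0.01, adjusted p = 0.454), and double KO was higher than Cxcr6 KO by 1.37 ± 0.75 (interval -0.33 to 3.06, adjusted p = 0.262) with no overlap. The comparisons with wildtype rested on which wildtype array was used. Without wildtype replicate 2, Nemo KO against wildtype was -2.92 and Cxcr6 KO against wildtype -3.69. Without wildtype replicate 1 they were 0.69 and -0.08. Each of these fits leaves 1 wildtype array, so the spread within wildtype is not measured in them. The difference of double KO from Cxcr6 KO, which uses no wildtype array, kept its estimate of 1.37 and had an adjusted p of 0.0311 when either wildtype array was left out of the shared estimate of spread.

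Hist1h1a, also a somatic H1 gene, had signals of 6.41 and 6.92 in wildtype, 6.94, 6.80 and 6.87 in Nemo KO, 7.14, 6.09 and 6.14 in Cxcr6 KO, and 6.54, 6.71 and 6.98 in double KO. Cxcr6 KO held both its highest and its lowest array, and no genotypes were separated. The mean of the 3 tested H1 genes was 8.56 and 7.23 in wildtype, 7.67 to 7.90 in Nemo KO, 6.90 to 7.07 in Cxcr6 KO and 7.84 to 8.28 in double KO. In this mean every Cxcr6 KO array was below all 8 others, but none of the 3 genes showed this alone. Cxcr6 KO replicate 3 was above wildtype replicate 2 for Hist1h1d (6.31 and 6.27) and for Hist1h1c (8.77 and 8.50). The share of such a pattern among means of other genes was not measured.

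**Figure D3:**
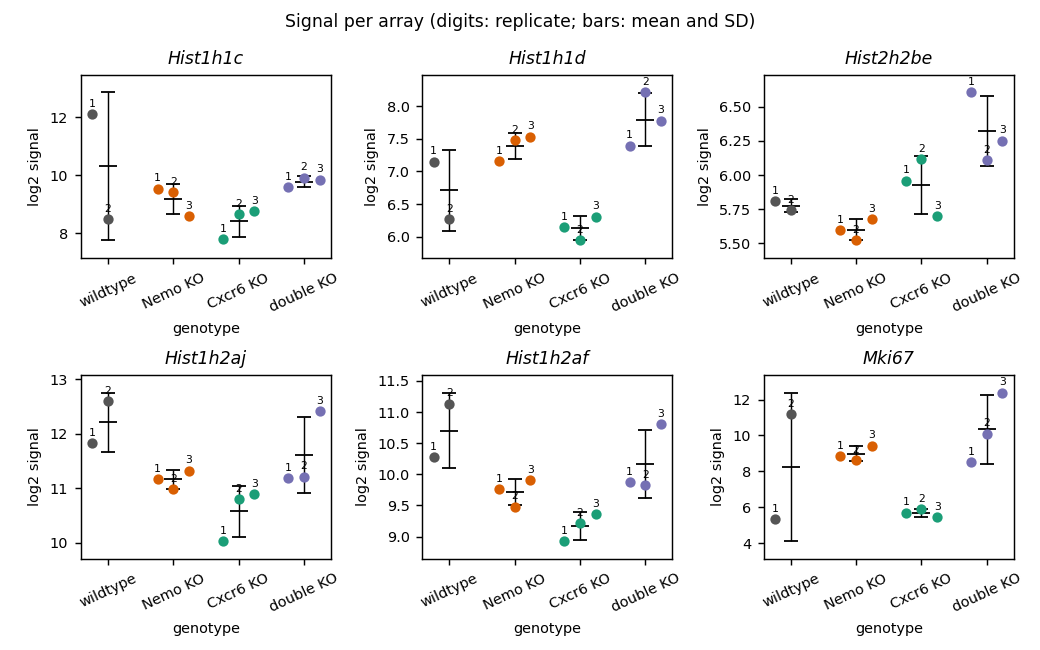
Log2 signal of 5 histone genes and Mki67 on each array, by genotype, with digits for the replicate and bars for the mean and SD (n = 2 in wildtype and 3 in the others). Hist1h1c is highest in wildtype replicate 1 (12.11), Hist1h2aj and Hist1h2af in wildtype replicate 2 (12.59 and 11.13), and Mki67 in double KO replicate 3 (12.38).

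Among H2A genes, the core histone partner of H2B, the rows of Hist1h2aj and Hist1h2af moved together. Hist1h2aj had signals of 11.83 and 12.59 in wildtype, 11.17, 10.99 and 11.32 in Nemo KO, 10.03, 10.80 and 10.89 in Cxcr6 KO, and 11.19, 11.21 and 12.41 in double KO. Hist1h2af had 10.27 and 11.13 in wildtype, 9.76, 9.48 and 9.91 in Nemo KO, 8.93, 9.22 and 9.36 in Cxcr6 KO, and 9.87, 9.82 and 10.80 in double KO. In both, Nemo KO lay below wildtype and double KO above Cxcr6 KO without overlap, a pattern that 113 genes (0.616% of those tested) had. The highest arrays were wildtype replicate 2 and double KO replicate 3, which also had the highest Mki67 signals. The next highest for both genes was wildtype replicate 1, which had the lowest Mki67 signal of the 11 arrays (5.35). Every Nemo KO array, with Mki67 at 8.64 to 9.44, lay below it for both genes.

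The rows may not be separate measurements. Hist1h2aj minus Hist1h2af was 1.10 to 1.61 log2 units over the 11 arrays (median 1.46, SD 0.14), and the correlation over the 11 arrays, which share every library, was 0.98. Both followed a row that the annotation assigns to 10 H2A genes, which it does not separate (correlations 0.99 and 0.98). Hist1h2aj is listed by RefSeq as a pseudogene, and its signal may hold that of a near-identical gene, which was not tested. The tolerance for equal values was 0.0001 log2 units, and no pair of the 28 genes had an equal value on any array.

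For Hist1h2af, Nemo KO differed from wildtype by -0.99 ± 0.33 (interval -1.74 to -0.24, adjusted p = 0.117), and double KO from Cxcr6 KO by 0.99 ± 0.30 (interval 0.32 to 1.67, adjusted p = 0.0702). Cxcr6 KO differed from wildtype by -1.53 ± 0.33 (interval -2.29 to -0.78, adjusted p = 0.130), and the interaction was -1.98 ± 0.45 (unadjusted p = 0.00159, adjusted p = 0.251). The estimates for Hist1h2aj were -1.05, 1.03, -1.64 and -2.08, with adjusted p of 0.154, 0.104, 0.167 and 0.265. None of these passed with all arrays. Without wildtype replicate 1, Cxcr6 KO differed from wildtype by -1.96 for Hist1h2af and by -2.02 for Hist1h2aj, and without wildtype replicate 2 by -1.10 and -1.25. Each of these fits leaves 1 wildtype array, so the spread within wildtype is not measured in them. For Hist1h2af, double KO against Cxcr6 KO kept its estimate of 0.99 when either wildtype array was left out. Without wildtype replicate 2 the difference of Nemo KO from wildtype was -0.56 for Hist1h2af and -0.67 for Hist1h2aj, and without double KO replicate 3 the difference of double KO from Cxcr6 KO was 0.68 and 0.63.

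Hist1h2ak reached the signal minimum in wildtype and double KO only. It read 4.99 and 5.92 in wildtype, 5.05, 4.98 and 4.97 in Nemo KO, 4.56, 4.93 and 4.30 in Cxcr6 KO, and 4.97, 5.68 and 5.85 in double KO. Double KO was above Cxcr6 KO without overlap, by 0.90 ± 0.29 (interval 0.26 to 1.55, adjusted p = 0.0802). Since the gene entered the test through wildtype and double KO, the genotypes in which it was high, this choice favours a difference, and the values are given as a description. The other H2A genes tested, among them the testis gene Hist1h2aa (5.68 to 6.23 on all arrays), varied by 0.89 or less over the 11 arrays, and none of their differences between genotypes passed.

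All 7 H2B genes tested had a negative estimate in Nemo KO against wildtype (-0.78 to -0.03, median -0.23), and none passed the test. Of all genes tested, 44.6% were positive in that comparison. The 7 estimates were also negative after quantile normalization. Centring each array on its median lowered every gene's estimate by the same amount, so it could not change these signs. Hist1h2bm was below the signal minimum in Nemo KO only (5.10 to 5.14), which favours a negative estimate. In the other comparisons the estimates of the 7 H2B genes had both signs, with 3 positive and 4 negative in double KO against Nemo KO, 2 and 5 in double KO against Cxcr6 KO, and 4 and 3 in Cxcr6 KO against wildtype. Hist1h2ba, known as the testis H2B gene, read 8.46 and 7.61 in wildtype, 7.25, 7.21 and 7.31 in Nemo KO, 7.57, 7.41 and 7.91 in Cxcr6 KO, and 7.51, 6.81 and 6.97 in double KO. Nemo KO was below wildtype without overlap, with a difference of -0.78 ± 0.27 (interval -1.39 to -0.17, adjusted p = 0.125), and double KO differed from Cxcr6 KO by -0.53 ± 0.24 (interval -1.08 to 0.02, adjusted p = 0.186) with an overlap. Without wildtype replicate 2 the first of these was -1.20, and without wildtype replicate 1 it was -0.36. Each of these fits leaves 1 wildtype array, so the spread within wildtype is not measured in them. The 2 H2B genes Hist1h2bk (5.89 to 6.24) and Hist1h2bb (5.72 to 6.34) were near level on all arrays.

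Hist2h2be and Hist2h2bb, H2B genes of the Hist2 cluster, are named because of their small p-values, after these were seen. Hist2h2be read 5.81 and 5.74 in wildtype, 5.60, 5.52 and 5.68 in Nemo KO, 5.96, 6.12 and 5.70 in Cxcr6 KO, and 6.61, 6.11 and 6.25 in double KO. Double KO lay above Nemo KO without overlap, by 0.72 ± 0.14 (interval 0.40 to 1.05, adjusted p = 0.067). Hist2h2bb read 5.60 and 5.70 in wildtype and 5.10 to 5.34 on the 9 other arrays. Nemo KO differed from wildtype by -0.36 ± 0.09 (adjusted p = 0.0749) and Cxcr6 KO by -0.45 ± 0.09 (adjusted p = 0.0984), and neither passed. The Cxcr6 KO mean of Hist2h2bb was below the signal minimum and its wildtype mean above it, so the signal filter favours the second difference. The mean of the 7 tested H2B genes was 5.76 to 6.23 over the 11 arrays, a range of 0.47, against 1.01 for the 7 tested H2A genes.

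The H3 genes, whose protein pairs with H4 at the centre of the nucleosome, were highest in a single array. Hist1h3c read 5.97 and 6.17 in wildtype, 6.12, 5.73 and 6.36 in Nemo KO, 5.84, 6.12 and 6.01 in Cxcr6 KO, and 6.17, 6.12 and 6.93 in double KO. Hist1h3f read 5.16 and 5.50 in wildtype, 5.31, 5.32 and 5.22 in Nemo KO, 5.10, 5.26 and 5.61 in Cxcr6 KO, and 5.31, 5.60 and 6.30 in double KO. Double KO replicate 3 was the highest array for both, as for Hist1h3g (5.20, against 3.65 to 4.23 elsewhere), which was below the signal minimum. The other double KO arrays lay within the range of Cxcr6 KO or next to it, and the genotypes overlapped: double KO minus Cxcr6 KO was 0.42 for Hist1h3c (interval -0.10 to 0.94, adjusted p = 0.261) and 0.41 for Hist1h3f (interval -0.12 to 0.95, adjusted p = 0.281). The H4 gene Hist1h4a read 5.25 to 5.94, with Nemo KO (5.33, 5.49 and 5.25) below wildtype (5.68 and 5.66), a difference of -0.31 (interval -0.64 to 0.02, adjusted p = 0.222). The second H4 gene, Hist1h4b, was under the minimum (3.92 to 4.74).

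Many histone genes could not be read one by one. The annotation names 69 clustered histone genes, of which 41 occur only in rows shared by several symbols. There are 37 such rows, and 10 of the 28 genes occur in them as well as in their own row, while 18 have only their own. No value of a shared row is assigned to a gene here, and none of these rows was tested. The row shared by 3 H2B genes read 14.12 and 13.23 in wildtype, 12.67, 12.00 and 13.00 in Nemo KO, 13.86, 13.48 and 13.91 in Cxcr6 KO, and 13.26, 12.51 and 12.75 in double KO. With Nemo deleted it was lower in both lines without overlap, as 2 of the 37 shared rows and 12.2% of all genes tested were. In the row of 10 H2A genes that follows Hist1h2aj, by contrast, Nemo KO (10.56 to 10.97) lay below wildtype (11.46 and 12.13) and double KO (10.85 to 12.01) above Cxcr6 KO (9.78 to 10.51).

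**Figure D4:**
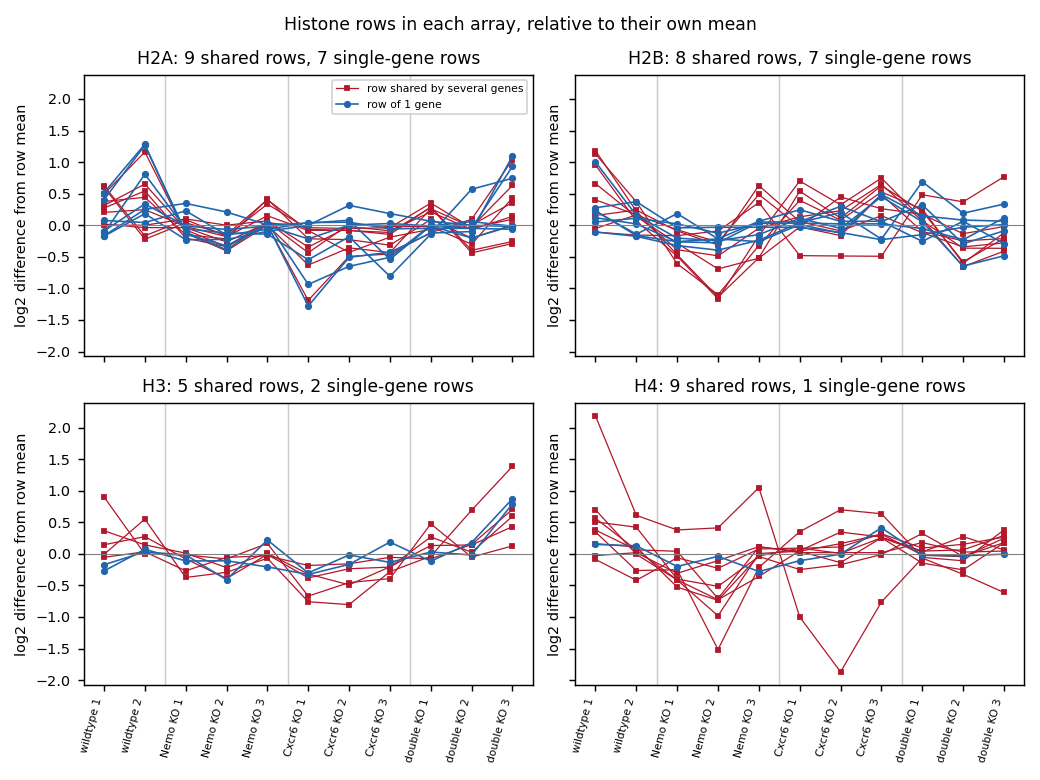
Log2 difference of each row from its own mean over the 11 arrays, for rows shared by several genes of a class (red squares; 9 for H2A, 8 for H2B, 5 for H3 and 9 for H4 with a mean over the signal minimum) and for tested genes with a row of their own (blue circles). Of the shared rows, 4 of 5 for H3 peak in double KO replicate 3 (the fifth in wildtype replicate 1), 6 of 8 for H2B are lowest in Nemo KO replicate 2, and a row of 13 H4 genes is low in Cxcr6 KO.

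Few genes that make, process or deposit histones passed the test. None of 21 tested genes for transcription and 3 prime processing of histone messages, and none of 12 for their decay, passed in any comparison. The smallest adjusted p among them, in limma, was 0.0758 for Cstf2t, a cleavage stimulation factor (double KO minus Cxcr6 KO -0.55 ± 0.17). Slbp, the stem-loop binding protein, read 6.94 in wildtype replicate 2 and 6.50 to 6.67 on the 10 other arrays, and Npat read 7.74 to 8.45. Of 8 replication-independent histones, which are made outside S phase, H2az2 (an H2A.Z gene) fell in double KO against Cxcr6 KO by 0.55 on the log2 scale (adjusted p = 0.0462). Of 21 chaperones, Tlk1, a kinase of the chaperone Asf1, fell by 0.34 (adjusted p = 0.0336) and Rbbp4, a subunit of the chromatin assembly factor, by 0.52 (adjusted p = 0.0492) in that comparison, in which 7.41% of all genes passed. No member of either list passed in another comparison.

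S phase genes and mitotic genes differed in how far they spread over the arrays. The 40 S phase genes had a mean of 6.45 and 7.03 in wildtype, 6.56 to 6.61 in Nemo KO, 6.53 to 6.61 in Cxcr6 KO and 6.52 to 6.96 in double KO. The replication helicase gene Mcm2 read 6.39 in wildtype replicate 2 and 6.44 in double KO replicate 3, its highest arrays, and 5.62 to 6.28 on the others. The sliding clamp gene Pcna differed between Nemo KO and wildtype by -0.75 ± 0.16 (adjusted p = 0.0654). Only Gins4, a part of the replicative helicase, passed: it fell in double KO against Cxcr6 KO by 0.62 (adjusted p = 0.021). The 27 genes of G2 and mitosis had means of 5.47 and 7.24 in wildtype, 6.18 to 6.60 in Nemo KO, 5.49 to 5.62 in Cxcr6 KO and 6.29 to 8.21 in double KO. In double KO against Cxcr6 KO all 27 were positive (median 1.64) and 1 passed, Ect2, a regulator of cytokinesis (3.07 ± 0.77, adjusted p = 0.047). Of all genes, 39.3% were positive and 7.41% passed in that comparison. Mki67 differed by 4.65 ± 1.35 (adjusted p = 0.0648), and the cell cycle inhibitor Cdkn1a rose by 4.28 ± 0.72 (adjusted p = 0.0163).

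**Figure D5:**
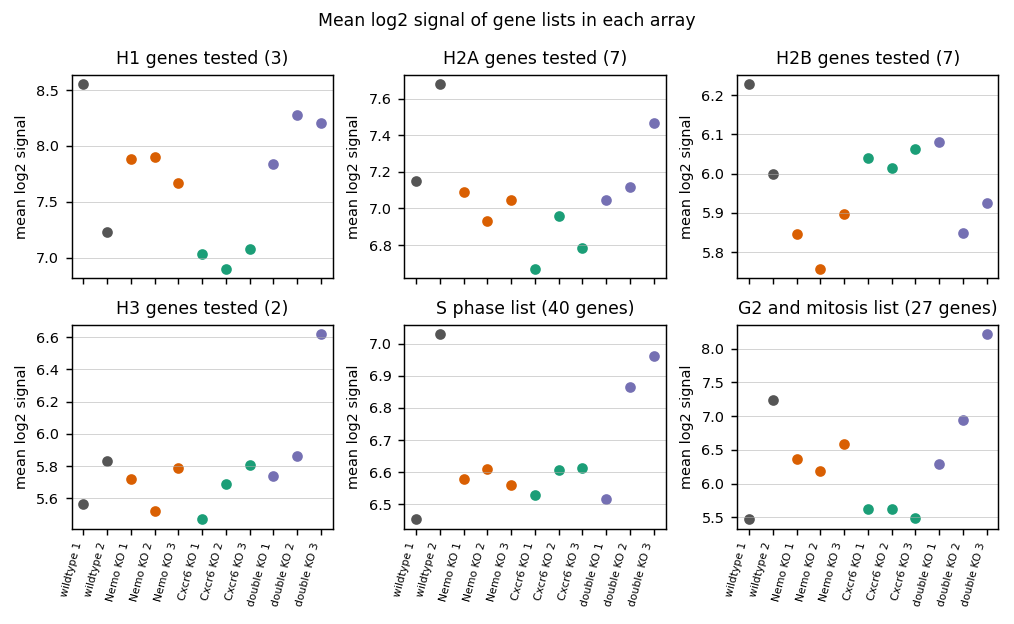
Mean log2 signal on each array of the tested H1, H2A, H2B and H3 genes, of 40 S phase genes and of 27 genes of G2 and mitosis, coloured by genotype, with a separate scale in each panel. The H2A mean (7.68) and the S phase mean (7.03) are highest in wildtype replicate 2, the H3 mean (6.62) and the mitosis mean (8.21) in double KO replicate 3, and the H1 (8.56) and H2B (6.23) means in wildtype replicate 1.

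The histone classes did not peak in the same array. The means of the tested H1 and H2B genes were highest in wildtype replicate 1, which had the lowest mitosis and S phase means, but 1 gene in each class had its own peak there, Hist1h1c of 3 H1 genes and Hist1h2ba of 7 H2B genes. The H2A mean was highest in wildtype replicate 2, as were 4 of its 7 genes, and the H3 mean in double KO replicate 3, as were both its genes. The 4 H2A genes include Hist1h2aj and Hist1h2af, whose rows may not be separate measurements. They also include Hist1h2ak, which reached the signal minimum in wildtype and double KO only, so the signal filter favours such a peak. Of all 20 genes, 2 (10%) had their highest signal in wildtype replicate 1, against 17.97% of all genes tested, 5 in wildtype replicate 2 (8.87% of all genes did) and 3 in double KO replicate 3 (10.2%), while 5 had their lowest in Cxcr6 KO replicate 1 (9.23%). The 5 in wildtype replicate 2 are these 4 H2A genes and Hist2h2bb, whose Cxcr6 KO mean was below the signal minimum. Hist1h2aj and Hist1h2af are also among the 5 lowest in Cxcr6 KO replicate 1. The differences between these shares were not tested.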

How the data were processed

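The authors deposited a log2 signal for each transcript cluster on each array, made with Affymetrix Expression Console, RMA (background correction, quantile normalization and probe summary) and Transcriptome Analysis Console, per the submitters' processing notes, with no versions. The Affymetrix WT Plus kit labelled 300 ng of total RNA, per the labels. Sources used here do not give the array's genome build. RMA can even out shifts shared by many genes. The number of arrays limits the precision.

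Of 65956 rows, 30604 have 1 gene symbol in the platform annotation, 2146 several and 33206 none. Per gene the row with the highest mean was used, and genes entered the test where the mean of at least 1 genotype reached 5.27, the median over all row means. A mean per genotype was fitted to all 11 arrays (limma 3.58.1 under R 4.3.3, functions lmFit and eBayes with default moderation, 7 residual degrees of freedom), two-sided, with Benjamini-Hochberg adjustment over 18337 genes at 5%. Errors of differences are standard errors, intervals are 95% from the same fit, and fold changes are powers of 2 of log2 differences. The fit was tested on simulated data. All 28 histone genes matched RefSeq by gene identifier.

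The members, gene lists and marker lists were chosen with earlier results of these data known. Named were histone genes past 5%, the 3 with the highest mean signal in each class, the 8 with the widest range, rows with near-identical values, and Slbp, Npat, Mki67, Mcm2, Pcna, Cdkn1a, Ikbkg and Cxcr6; from each list, genes past 5% and up to 3 with the smallest p. Alternatives were centring on array medians, quantile normalization, no or a stricter signal filter, limma with trend and robust settings, array weights, fits of the compared genotypes alone, a replicate block and leaving out each array.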

Additional observations from a re-analysis of the deposited data

Results flagged for a closer look

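No genotype has the 4 arrays that a test for a single outlying array needs. Of the rows shared by several histone genes, 6 had every Nemo KO array below both wildtype arrays and every double KO array above every Cxcr6 KO array. The difference between the 2 Nemo effects was not tested in any of them. In 3 rows of 10 H2A genes it was -2.05 (Nemo KO minus wildtype -1.003, double KO minus Cxcr6 KO 1.05), -1.38 (-0.62 and 0.76) and -0.58 (-0.24 and 0.33) on the log2 scale. In 2 rows of 8 H3 genes it was -0.89 (-0.32 and 0.57) and -1.81 (-0.52 and 1.29), and in a row of 4 H3 genes -0.94 (-0.37 and 0.57). Among single-gene rows, 0.616% of genes tested had this pattern. The rows hold overlapping sets of near-identical genes and are not independent.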

How the results depend on the processing

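The medians of the histone genes kept their sign in every comparison under all alternatives run. The call of Hist1h1d was lost only without one of 3 arrays, as given in the report. Centring each array on its median gave 1274 genes called in Nemo KO against wildtype (29 in the report), 200 in double KO against Nemo KO (109) and 28 in Cxcr6 KO against wildtype (47), with 1 histone gene in each of the first 2 (Hist2h2bb, adjusted p = 0.039, and Hist2h2be, adjusted p = 0.0343) and a median interaction of -0.39. The median over all genes went from -0.04 to -0.12 and from 0.04 to 0.16 in these 2, and from -0.03 to -0.17 for the interaction. Among called genes the share that was higher went from 31.0% to 6.75%, from 61.5% to 87% and, in double KO against Cxcr6 KO, from 46.5% to 58.6%. Quantile normalization gave 11 genes called in Nemo KO against wildtype, and shares of 54.5%, 75%, 37.2% and, in Cxcr6 KO against wildtype, 80% (68.1% in the report). Trend and robust settings also gave 11 in Nemo KO against wildtype. Without a filter, 7 were called there and 24 in Cxcr6 KO against wildtype. A filter 1 log2 unit stricter gave 85 in Nemo KO against wildtype, and medians of the histone genes left of -0.48 there, 0.43 in double KO against Nemo KO, 0.71 in double KO against Cxcr6 KO, -0.78 for the interaction and -0.49 in Cxcr6 KO against wildtype. These medians are over fewer histone genes. Hist2h2be and Hist1h3c reached the stricter minimum in double KO only (means 6.32 and 6.41). This favours a positive difference of double KO and a negative interaction. With array weights, 0 genes were called in Nemo KO and 16 in Cxcr6 KO against wildtype, and in double KO 971 against Nemo KO (1 histone gene) and 4692 against Cxcr6 KO (3 histone genes). Fits of the compared genotypes alone gave 0 and 0 against wildtype, and in double KO 11 against Nemo KO and 2766 against Cxcr6 KO (2 histone genes). Over all 5 H1 genes the array mean ranged over 1.07 (1.66 for the 3 tested). The cause of the shifts between settings was not tested. The 8 histone genes below the signal minimum have no test, so a change in them could not be seen here.

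Leaving out each array in turn gave 0 to 2380 genes called and 0 to 2 histone genes in Nemo KO against wildtype, 19 to 161 and 0 to 0 in double KO against Nemo KO, 116 to 2340 and 0 to 4 in double KO against Cxcr6 KO, 8 to 493 and 0 to 1 in Cxcr6 KO against wildtype, and 0 to 232 and 0 to 1 in the interaction. The medians ranged from -0.22 to -0.14, 0.10 to 0.25, 0.06 to 0.14, -0.14 to -0.06 and -0.44 to -0.21 in that order. Hist1h1c in Nemo KO against wildtype ran from -2.92 to 0.69, and its interaction was -4.28 without wildtype replicate 2. The fits without a wildtype array leave 1 in that genotype, so they hold no measure of the spread within wildtype. Either wildtype array left out gave 4 histone genes in double KO against Cxcr6 KO, where Hist1h2af (adjusted p = 0.0451 and 0.045) and Hist1h2ak (0.044 and 0.0439) also passed; Hist1h2ak had reached the signal minimum only in the genotypes where it was high, so its pass supports nothing.

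The labels do not say whether the replicate numbers pair the arrays. Deviations from the genotype means of arrays with the same number correlated between -0.27 and 0.28 (15 pairs), and of those with different numbers between -0.42 and 0.29. The deviations of the 2 wildtype arrays mirror each other, so these correlations cannot decide whether arrays are paired. A replicate block gave 0 genes called in Nemo KO and 24 in Cxcr6 KO against wildtype, and in double KO 61 against Nemo KO and 1507 against Cxcr6 KO. The last held 2 histone genes, the second being Hist1h2af (adjusted p = 0.0493).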

Other observations

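A row shared by 13 H4 genes separated the mouse lines. It read 9.98 and 8.41 in wildtype and 8.17, 8.21 and 8.85 in Nemo KO, against 6.80, 5.93 and 7.03 in Cxcr6 KO and 7.73, 7.47 and 7.18 in double KO. All 6 arrays of the line without Cxcr6 lay below the 5 others, as in 0.322% of genes tested and in no other shared histone row. H4 genes build the core of the nucleosome together with H3. The row was not tested, and mouse line and Cxcr6 status cannot be told apart.

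A row shared by 3 H2B genes, other than that of the report, read 6.72 and 6.67 in wildtype, 6.66, 6.73 and 7.18 in Nemo KO, 6.34, 6.34 and 6.33 in Cxcr6 KO, and 7.31, 7.19 and 7.59 in double KO. Double KO lay above all other arrays, by only 0.01 at the nearest pair (double KO replicate 2 and Nemo KO replicate 3), and Cxcr6 KO below them, an order that 0.213% of genes tested also had. No test was made, and the genes behind it were not separated.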
